A study of Mus musculus with 8 samples.

Results

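Alternative last exons are 3′ terminal exons that a gene can use in place of each other, so that its transcripts end at different places. The exons described here were chosen by annotation and depth. An exon ID was taken where it is the last exon of every multi-exon transcript that holds it, where it had at least 80 counts summed over all 8 libraries, and where it belongs to a protein-coding gene with at least 2 such exons. The rule found 763 exon IDs in 361 genes, of 496288 exon IDs in all. Of these genes 325 had 2 members, 31 had 3 and 5 had 4. The summed counts chose the members, but the rule did not look at how the counts fall between the groups.

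The libraries came from mouse oocytes at the germinal vesicle (GV) stage, which have finished growth and wait in meiotic prophase. The strain was C57BL/6 and the females were labelled as 20 days old, with 3 weeks given in the protocol. They received 5 IU of PMSG, a gonadotropin that drives follicle growth, and oocytes of at least 70 µm were collected 48 hours later into medium with milrinone, which keeps them arrested. Controls had the genotype Kiaa1429F/+;Zp3-Cre and conditional knockouts (cKO) had Kiaa1429F/F;Zp3-Cre, with 4 libraries of about 20 oocytes in each group. Controls thus also carried the recombinase and 1 floxed allele. Zp3-Cre is driven by an oocyte promoter that turns on in growing oocytes, so RNA made before that time may remain. The labels speak of 4 separate experiments and do not tie libraries to animals, so p-values rest on the scatter of these libraries alone, which may be technical.

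Where a transcript ends is set by cleavage and polyadenylation. The machinery reads a hexamer, most often AATAAA or ATTAAA, shortly before the cleavage site, and cuts and adds a poly(A) tail downstream of it. A terminal exon that lies upstream in the gene, often inside an intron of the longer form, is used when the RNA is cut before transcription and splicing reach the downstream one. U1 snRNP and the kinase Cdk12 are known to hold back such early cleavage. The choice of last exon sets the 3′ UTR and, where the exon is translated, the C terminus of the protein. GV oocytes are nearly silent in transcription and live on stored mRNA whose 3′ UTRs govern translation during maturation. Kiaa1429, now named Virma, is the large scaffold subunit of the complex that places N6-methyladenosine (m6A) on mRNA, mostly near stop codons and in last exons, and it is known to bind cleavage factors.

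The 3′ ends of 6 genes described below are shown, 5 with large moves in either direction and Cstf3, a cleavage factor, to show what the annotation places there. Each line gives the final 30 bases of an exon on the transcript's strand, 5′ to 3′, from the GENCODE M21 transcripts (mm10), with the AATAAA or ATTAAA nearest the end in capitals.
Hhat upstream (chr1:192654960-192654989, minus strand): catgatcttATTAAAacagtgttcctagct
Hhat downstream (chr1:192512828-192512857, minus strand): gatattttttaAATAAAaattttgagatct
Crb1 upstream (chr1:139245617-139245646, minus strand): ctctttctatgttcggaaagtctctaattt
Crb1 downstream (chr1:139229538-139229567, minus strand): ttgcagaaaAATAAAatcttttcttcttta
Lin52 upstream (chr12:84531544-84531573, plus strand): tgtctctatAATAAAtatgtcccttgtata
Lin52 downstream (chr12:84546116-84546145, plus strand): ccctcggatgcccgtgaagggctcgggcat
Ptprd upstream (chr4:77917524-77917553, minus strand): aaatAATAAAgttttaaatagtattattac
Ptprd downstream (chr4:76591325-76591354, minus strand): actgaagactagtatcttctatttttctag
Pkd2 upstream (chr5:104501320-104501349, plus strand): ataaatgAATAAAtctttttttaaaaatcc
Pkd2 downstream (chr5:104505790-104505819, plus strand): tacattacttAATAAAgacttgacatagta
Cstf3 upstream (chr2:104611377-104611406, plus strand): gaaAATAAAgctttgttaatacgttgttgt
Cstf3 downstream (chr2:104665400-104665429, plus strand): aaaggAATAAAaggacctcaaaaacatgcc
Of these 12 ends 9 show a hexamer, with 19 to 27 bases from its first base to the exon's end.

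Over all members, AATAAA or ATTAAA on the transcript strand stood within the final 50 bases of 519 of the 755 that were at least 100 bases long, which is 68.7%. The same search gave 79.2% in all last exons of protein-coding genes with at least 80 counts, 45.9% in all annotated last exons of such genes whatever their counts, and 3.44% in the first 50 bases of the members. Upstream members held a hexamer in 61.8% and downstream members in 76.4%. Members with coding bases held it in 74.8% and members without in 56.7%, and those held only by retained-intron transcripts in 44.7%. GGACT, 1 form of the m6A consensus, occurred 0.842 times per kb on the transcript strand of the members and 0.920 times per kb in all last exons of protein-coding genes at this depth. These are matches of letters in the annotation and say nothing of use or methylation.

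The 361 most downstream members are called downstream here and the other 402 upstream, by the position of their 3′ ends along the gene. The 2 kinds differed in annotation. Of the upstream exons 202 held coding bases and 200 did not, against 303 and 58 of the downstream exons. Most members, 525, belonged only to transcripts annotated as protein_coding. A further 130 belonged to processed_transcript forms, which have no annotated reading frame, 94 to retained_intron forms, 11 to forms annotated for nonsense-mediated decay and 3 to several types. Median length was 1069.5 bases upstream and 1550 downstream. Upstream exons held a median of 277.5 counts and 27.7% of the members' counts, against a median of 867 counts downstream. The 3′ ends of a gene's outermost members lay a median of 22783 bases apart, with quartiles of 7134 and 72119. The lowest members that entered were a last exon of Vps45 and one of Ank3, each with 80 counts, and the nearest that stayed out were in Lamp2 and Sorcs2, each with 79.

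The libraries held 4247471 to 4790038 counts on exon IDs in controls and 4399190 to 5064008 in cKO, and log2 CPM (counts scaled to library size by TMM) correlated at 0.955 to 0.982 within groups and 0.827 to 0.877 between them. Virma fell from 67.1 ± 10.6 to 19.3 ± 3.23 CPM (SD, n = 4 per group). Its log2 fold change was -1.81 (SE 0.18). Virma is not a member: its own alternative last exon (chromosome 4, 11526595 to 11527621) held 5, 5, 2 and 10 counts in the controls and 0 in each cKO library, below the 80 counts asked for. The bases between the loxP sites are not named in the labels, so this level is a check through the amount of RNA only. Summed oocyte markers ranged from 33074 to 44649 CPM in controls and from 18049 to 21836 CPM in cKO. Of 9 tested markers 1 was higher and 3 were lower. Most of the sum was Gdf9, with means of 13439.5 and 8098 CPM, and Bmp15, with 18598.6 and 7304 CPM. Both were called lower, as was Zp1. Dppa3 was called higher, and Zp3, Figla, Nobox, Ooep and Oosp1 were not called. Cumulus and granulosa markers summed to 228 to 378 CPM against 427 to 704 CPM, with 3 of 7 tested higher and 2 lower. Theca, stroma and vessel markers summed to 7.46 to 12.1 against 3.60 to 5.06 CPM, with 1 of 2 tested lower. Of the 5 immune and blood markers Ptprc, Adgre1 and Hbb-bs were at 0 in every library, and the sum was at most 0.658 CPM in controls and at least 5.29 CPM in cKO, most of it C1qa, which was called higher. In such bulk samples fewer cells of a type and less RNA per cell cannot be told apart, and the part of these cells in the results on last exons was not tested.

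The first question was whether the last exons of a gene moved together when both copies of Virma were floxed. For each gene the shift is the change between groups in the ratio of the most downstream to the most upstream member, on the log2 scale. A positive shift means relatively more downstream counts in cKO. In cKO the counts moved to the downstream last exon in 139 of 361 genes and to the upstream one in 75, and 147 did not pass the test (edgeR quasi-likelihood test on both exons of a pair, Benjamini-Hochberg adjusted p under 0.05 over 5853 exon pairs of all genes). Over all those pairs 27.9% were called, 15.7% to downstream and 12.2% to upstream, against 59.3%, 38.5% and 20.8% of the genes described here. The median shift was 0.43, and 0.04 over all pairs. Pairs of internal exons of a gene had a median of 0.01, with 117 called to downstream and 130 to upstream of 1145.

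The shifts were often large. In 118 genes the move to downstream exceeded 1 on the log2 scale, that is a doubling of the ratio, and in 60 the move to upstream did. Called shifts of that size made up 21.5% of all pairs. The downstream share of the pair's counts did not overlap between the 4 control and the 4 cKO libraries in 190 genes, or 52.6%, where 28.4% of all pairs were so separated. Of the 214 genes with a called shift, 89 had no called change in the summed level of the gene. Shifts were called in 54.3% of the 164 genes described here whose summed level was not called. They were called in 62.8% of the 86 genes called higher and in 64.0% of the 111 called lower. Called shifts were thus not more frequent where the gene level was not called, and the difference was not tested.

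**Figure D1:**
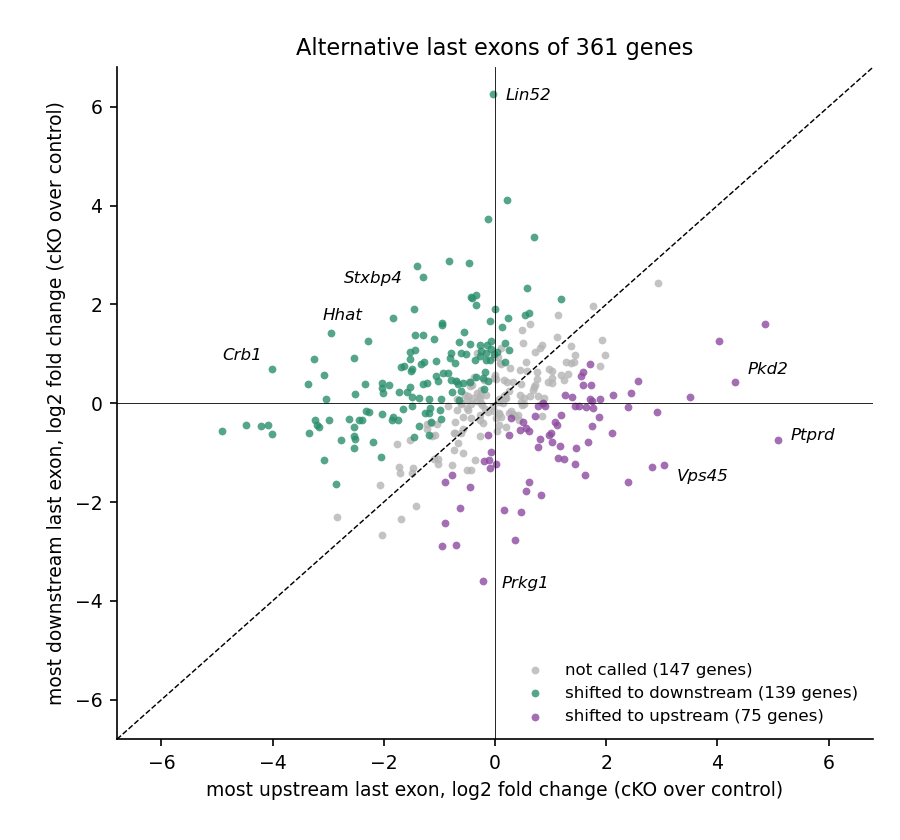
Log2 fold change of the most upstream (x axis) and the most downstream (y axis) last exon of each of 361 genes, cKO over control, 1 point per gene, with the diagonal dashed. The 139 genes shifted to downstream lie above the diagonal and the 75 shifted to upstream below it.

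The plot of both exons' fold changes shows which exon moved. Among the 139 genes shifted to downstream, the upstream exon fell with no call for the downstream one in 42, the downstream exon rose with no call upstream in 36, and both happened in 34. In 20 both exons fell and in 3 both rose, by unequal amounts, and in 4 neither exon passed alone. Among the 75 shifted to upstream, the upstream exon rose alone in 25, the downstream exon fell alone in 19 and both happened in 18. In 7 both rose, in 4 both fell and in 2 neither passed. Opposite calls thus occurred in 52 genes. Over all pairs 4.65% had opposite calls. The exon that held over 50% of the pair's mean counts changed in 52 genes, from upstream to downstream in 34 and the other way in 18. In 44 of them the shift was called and the shares did not overlap. The matching share over all pairs was not computed, so whether such changes are more frequent here cannot be said. By the means the downstream exon led in 230 genes in controls and in 246 in cKO.

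Hhat, the acyltransferase that attaches palmitate to Hedgehog proteins, exchanged its last exons at high counts. Its upstream last exon (chromosome 1, 192654960 to 192657604, held by processed_transcript forms, no coding bases) had 471, 388, 407 and 454 counts in the controls and 69, 74, 42 and 69 in the cKO libraries. Its downstream exon (192512828 to 192513975, coding) had 628, 618, 550 and 438 counts in the controls and 1645, 1584, 1631 and 2048 in cKO. Every cKO library was below every control for the upstream exon and above every control for the downstream one. The downstream share went from 56.3% ± 5.17 to 96.4% ± 0.86 (SD, n = 4), a shift of 4.40 (SE 0.21, adjusted p = 1.84e-08, edgeR). A further upstream member of Hhat, with 130 counts, was not called.

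Crb1 encodes a Crumbs protein of apical cell polarity. Its upstream last exon (chromosome 1, 139245617 to 139249075) is held by a retained_intron form and had 213, 212, 226 and 190 counts in controls against 13, 17, 7 and 23 in cKO. The downstream coding exon (139229538 to 139231790) had 95, 85, 81 and 44 counts in controls and 154, 124, 152 and 132 in cKO. The controls had more upstream than downstream counts in every library and the cKO libraries the reverse. The downstream share rose from 26.2% ± 5.23 to 90.2% ± 4.61, a shift of 4.71 (SE 0.32). The upstream exon reached the count minimum mainly through the controls, so the shift is given as a description, without a p-value. The summed level of the gene fell, with a log2 fold change of -0.87. With a minimum of 20 counts other exons form its outermost pair, whose shift is 4.18.

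The same exchange, with the upstream exon called lower and the downstream one higher, occurred in 5 further genes taken for their small p. Stxbp4, a syntaxin-binding protein of vesicle fusion, had 32.8%, 20.9%, 36.5% and 34.2% of counts downstream in controls and 87.7%, 87.5%, 87.7% and 84.4% in cKO. Its shift was 3.86 (SE 0.25), and both of its exons are coding. With a minimum of 20 counts another exon enters its outermost pair, whose shift is 2.26 (adjusted p = 0.0220, edgeR). Lrriq3 went from a downstream share of 49.6% to one of 94.6%, with the upstream retained_intron exon falling from 80 to 87 counts per control library to 5 to 15 per cKO library. Opa3, a mitochondrial protein, had 37.4%, 36.8%, 33.3% and 36.5% downstream in controls against 79.4%, 74.8%, 69.3% and 76.3% in cKO. Its summed level was not called (log2 fold change -0.20, adjusted p = 0.413, edgeR). Dtd2, which removes wrongly attached amino acids from tRNA, went from 14.5% to 53.8% downstream. In these 4 genes no cKO library overlapped a control library in its share. Stxbp4 and Lrriq3 were also named by size, where such separation was a condition.

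Auh, an enzyme of leucine breakdown that also binds AU-rich RNA, has 4 members. Its most downstream exon (chromosome 13, 52886428 to 52887297, retained_intron form) had 51, 41, 36 and 27 counts in controls and 143, 124, 121 and 144 in cKO, while its most upstream exon (52910210 to 52913061, coding) had a log2 fold change of -0.95. The shift between these was 2.54 (SE 0.22). An intervening coding exon with 1701 counts fell more, at -2.01. Between the 2 most counted exons the shift was -1.03, so for this gene the direction depends on which exons are set against each other.

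In Lin52 only the downstream exon was called. The gene encodes a subunit of the MuvB core that controls cell cycle genes. Its upstream last exon (chromosome 12, 84529690 to 84531573) held 2895, 2310, 2414 and 2487 counts in controls and 3177, 2647, 2181 and 3346 in cKO, and its log2 fold change was -0.03 (adjusted p = 0.88, edgeR). The downstream exon (84545905 to 84546145, coding) held 0, 1, 1 and 0 counts in controls and 58, 53, 47 and 58 in cKO. This exon reached the 80 counts asked for only through the cKO libraries, so the choice of members fixed that it differs. As a description, the 2 control counts against 216 in cKO give a ratio of 103 at equal depth, with a 95% Clopper-Pearson interval of 28.3 to 859 that covers counting error only. Of the 763 members 12 had under 10 counts in 1 group, 8 of them in controls, among which are exons of Cradd, Ptprd, Csf1, Nsg2 and Snx13, and 4 in cKO, among which is one of Uhrf1bp1l. They entered through the other group in the same way. Exons above this limit can also have reached 80 counts mainly through 1 group. Among them are the upstream exons of Pkd2, Cstf3, Vps45, Crb1, Lrriq3, Bpgm and Plat and the downstream exons of Prkg1 and Khdrbs2. The Lin52 exon remained a small part of the gene, at 0.021% of the pair in controls and 1.89% in cKO.

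Khdrbs2, a KH-domain RNA-binding protein of splicing control, gained downstream counts from 18, 15, 18 and 16 in controls to 229, 259, 263 and 273 in cKO, while its upstream exon had 7 to 18 counts over the 8 libraries and was not called. Cradd, a death-domain adaptor that activates caspase-2, had 1, 3, 0 and 1 downstream counts in controls and 24, 21, 34 and 29 in cKO, against 54 to 75 and 70 to 85 upstream. Its coding downstream exon thus rose beside a non-coding upstream exon that was not called. Rbm33, an RNA-binding protein, went from a downstream share of 2.37% to 25.5%, and Tmem132c from 1.49% to 23.1%, and in both the upstream exon was called lower as well. In Uhrf1bp1l the upstream exon, which belongs to a form annotated for nonsense-mediated decay, had 31, 23, 16 and 20 counts in controls and 4, 0, 0 and 1 in cKO. Its downstream exon was not called, and the downstream share rose from 77.8% to 97.6%.

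**Figure D2:**
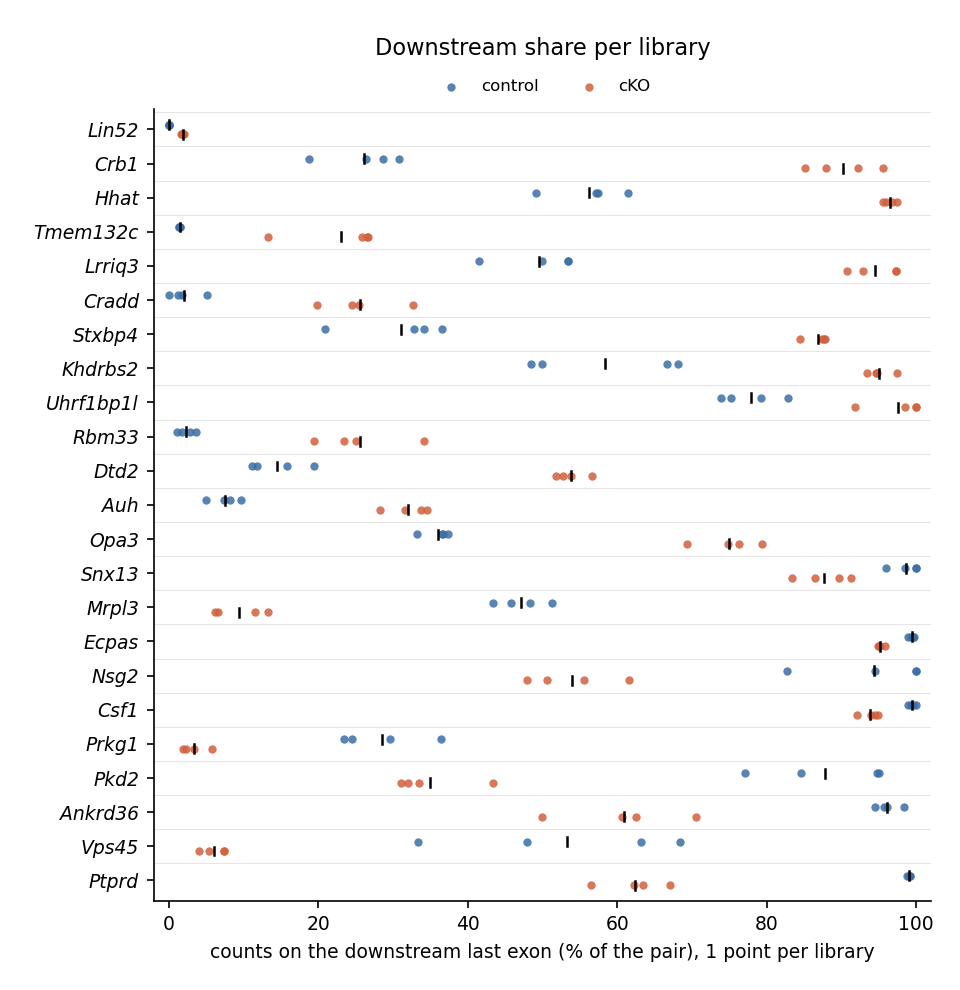
Share of the pair's counts on the downstream last exon (%) in each of the 8 libraries for 23 genes named for the size of their shift or for opposite calls, 1 point per library and a bar at each group mean. The 13 genes at the top moved to downstream in cKO and the 10 below to upstream. No control point overlaps a cKO point of the same gene, which was a condition for naming a gene by size.

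In other genes the counts moved to the upstream exon. Ptprd, a receptor tyrosine phosphatase of synapses, had 2 counts on its upstream last exon (chromosome 4, 77917524 to 77918356) in every control library and 69, 71, 103 and 88 in the cKO libraries. Its downstream exon (76591325 to 76594305) had 225, 192, 157 and 226 counts in controls and 120, 145, 134 and 145 in cKO. Each cKO library lay outside the control range for both exons. The downstream share fell from 99.0% to 62.4%, a shift of -5.83 (SE 0.30). The upstream exon reached the count minimum only through the cKO libraries, so the choice of members fixed that it differs. The shift is thus given as a description, without a p-value. Both exons belong to processed_transcript forms without coding bases, so neither stands for a coding transcript of the gene.

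Pkd2 encodes polycystin 2, a cation channel. Its upstream exon (chromosome 5, 104498441 to 104501349, retained_intron form) rose from 8, 4, 3 and 14 counts in controls to 143, 182, 90 and 261 in cKO. The downstream coding exon (104503452 to 104505819) had 44, 76, 54 and 47 counts in controls and 72, 82, 69 and 123 in cKO, and was not called. All cKO libraries had more upstream than downstream counts and all control libraries fewer. Vps45, a protein of endosomal vesicle fusion, had its upstream retained_intron exon at 10, 6, 13 and 14 counts in controls and 88, 118, 99 and 104 in cKO, and its downstream share fell from 53.2% to 6.09%, with the downstream exon called lower. Mrpl3, a protein of the mitochondrial ribosome, went from 47.2% to 9.41% downstream, with the upstream exon called higher and the downstream one lower.

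In Prkg1, the cGMP-dependent protein kinase, the downstream coding exon had 59, 54, 63 and 63 counts in controls and 10, 3, 5 and 4 in cKO. Its upstream retained_intron exon had a log2 fold change of -0.21 (adjusted p = 0.424, edgeR). Nsg2, a neuronal endosome protein, had 1, 5, 0 and 0 upstream counts in controls and 36, 63, 38 and 78 in cKO, and its downstream exon rose as well. In Snx13, a sorting nexin, the upstream exon had 0, 3, 0 and 1 counts in controls and 18, 21, 14 and 31 in cKO. The upstream exons of Csf1, the macrophage growth factor, and of Ecpas, a proteasome scaffold, rose at small shares: the downstream share went from 99.5% to 93.8% in Csf1 and from 99.4% to 95.2% in Ecpas. Ankrd36 went from 96.2% to 60.9%, with the upstream exon called higher and the downstream one lower.

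The 5 pairs with most counts moved at minor exons. Bpgm, the enzyme that makes 2,3-bisphosphoglycerate, had 49, 41, 38 and 49 counts on its upstream retained_intron exon in controls and 8, 6, 3 and 8 in cKO, beside 15546 to 19306 downstream counts in every cKO library. Plat, the tissue plasminogen activator and a known dormant mRNA of the oocyte, had 15, 32, 15 and 16 upstream counts in controls and 5, 6, 1 and 3 in cKO, and over 99% of the pair downstream in each library. Ccdc69 was similar, with a shift of 2.69. Ube2w, a ubiquitin-conjugating enzyme, used its upstream exon for nearly all counts, and its downstream exon rose from 15 to 28 counts per control library to 45 to 65 per cKO library. Cdc42, a regulator of cell polarity, has last exons that encode alternative C termini. Its upstream coding exon rose from 225, 219, 183 and 243 counts to 580, 740, 590 and 708, and the downstream share fell from 96.7% to 92.5%. For these 5 genes the shift left the leading exon as it was.

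The second question was whether exons with and without coding bases differed. Of the 763 members 208 were higher and 232 lower in cKO (edgeR quasi-likelihood test, adjusted p under 0.05 over 13973 exons). Over all exons tested 53.0% were called, 25.8% higher and 27.2% lower, and the members stood at 57.7%, 27.3% and 30.4%. As a whole they were thus near the background. Last exons of protein-coding genes in general had 34.6% higher and 21.1% lower. The median log2 fold change was -0.06 for the members, 0.01 for all exons and 0.19 for last exons of protein-coding genes.

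**Figure D3:**
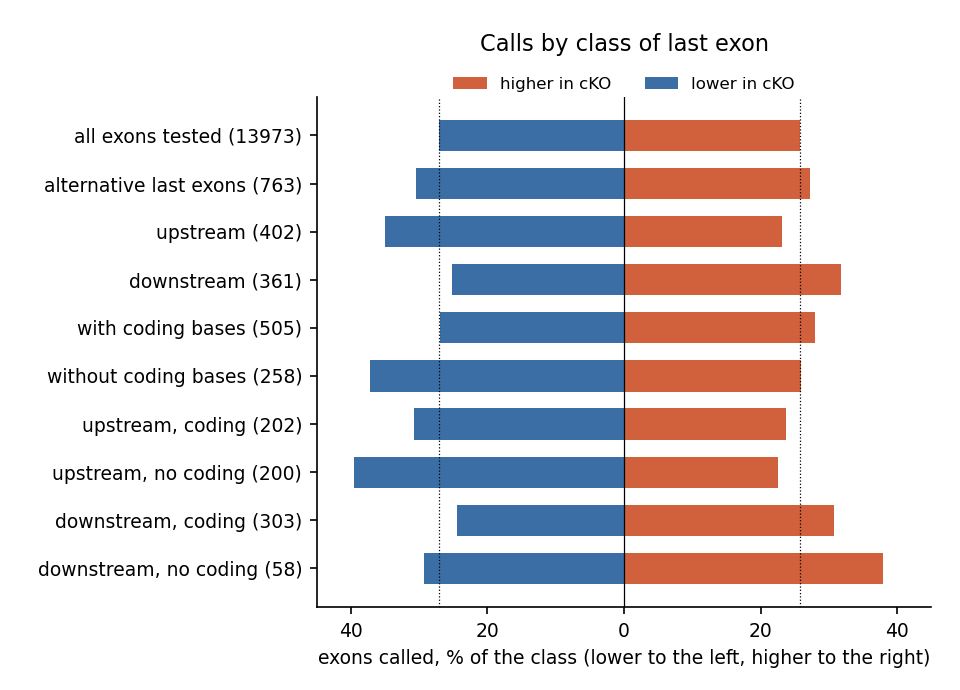
Percent of exons in each class called higher (right) or lower (left) in cKO, with the number of exons in parentheses and dotted lines at the values over all exons tested. Upstream exons without coding bases reach 39.5% lower, and downstream exons 31.9% higher.

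The counts differed by position. Upstream exons were higher in 93 and lower in 141, with a median of -0.21, and downstream exons higher in 115 and lower in 91, with a median of 0.11. Members without coding bases were higher in 67 and lower in 96 (median -0.26), and members with coding bases higher in 141 and lower in 136 (median 0.00). Upstream exons without coding bases had 45 higher and 79 lower and a median of -0.33. Upstream exons with coding bases had 48 higher and 62 lower and a median of -0.14. The 58 downstream exons without coding bases had 22 higher (37.9%) and 17 lower (29.3%), with a median of 0.06. The 303 with coding bases had 93 higher (30.7%) and 74 lower (24.4%), with a median of 0.11. Of the 258 members without coding bases 200 are upstream, so the pooled difference between the coding classes also holds one of position. The median of exons with coding bases lay above that of exons without by more at upstream than at downstream positions, and the difference between the classes was not tested.

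By transcript type, exons of processed_transcript forms were higher in 27 and lower in 51 of 130 (median -0.39), and those of retained_intron forms higher in 27 and lower in 35 of 94 (median -0.15). Among the 11 held by forms for nonsense-mediated decay 3 were higher and 4 lower. The 20 members without coding bases in protein_coding transcripts, where the last exon is all 3′ UTR, had 9 higher and 5 lower. Of the hexamer matches, downstream exons called higher held one in 84.3% and those called lower in 63.7%. Upstream exons called higher held one in 67.4% and those called lower in 55.5%.

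**Figure D4:**
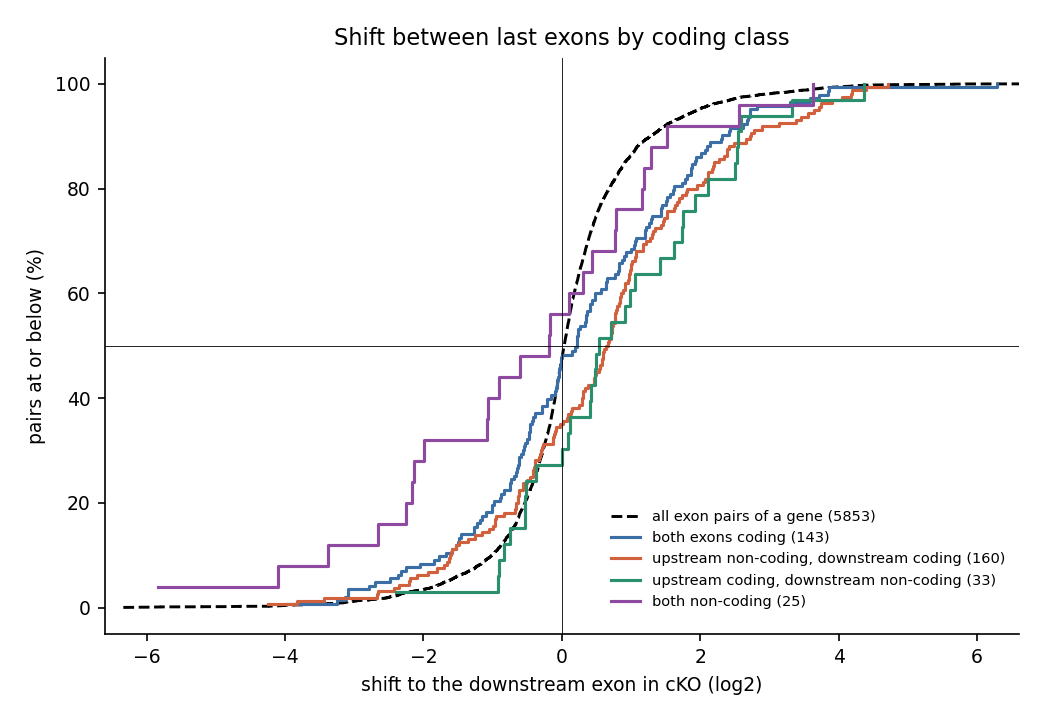
Cumulative share of genes (%) by shift to the downstream last exon in cKO (log2), for the 4 coding classes of the pair and, dashed, for all 5853 exon pairs. The 160 pairs with only a downstream coding exon and the 33 with only an upstream one lie to the right of the 143 with both, and the 25 with neither to the left.

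The shift was next described by the coding class of the pair, as in the cumulative plot of shifts. With a non-coding upstream and a coding downstream exon, 63 of 160 genes shifted to downstream and 27 to upstream (median 0.65). With the coding exon upstream and the non-coding one downstream, 15 of 33 shifted to downstream and 3 to upstream (median 0.54). In both arrangements more genes moved to the downstream than to the upstream exon. Genes with both exons coding had 54 to downstream and 35 to upstream of 143 (median 0.22), and those with neither 7 and 10 of 25 (median -0.19).

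An upstream last exon can overlap a first or internal exon of the longer transcript, and then is counted mainly by its extension into the intron. This was so for 187 of the 361 pairs. Of these 76 moved to downstream and 42 to upstream (median 0.30), and of the 174 pairs apart from such exons 63 and 33 (median 0.48). In the 306 pairs with at least 150 bases of each exon in no other exon ID and no overlap with another gene, 122 moved to downstream and 59 to upstream. The kit does not mark strand, so reads from an antisense or overlapping gene cannot be told apart in the other pairs. The downstream exon's use was also set against all tested exons of its gene (diffSpliceDGE of edgeR) rather than against the upstream last exon. Then 50 genes moved to downstream and 22 to upstream, and the median was 0.030 rather than 0.43. The matching share over all exons was not computed, so whether these counts exceed it cannot be said. The calls of Ptprd, Khdrbs2, Uhrf1bp1l, Csf1, Nsg2, Ecpas, Snx13, Cdc42, Plat, Bpgm, Ccdc69 and Cstf3 were lost.

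Per library, the downstream exon led its pair in 228 to 230 genes in controls and in 243 to 247 in cKO. The sum of processed_transcript members was 3205, 3129, 2964 and 3380 CPM in controls and 2229, 2147, 1959 and 2302 CPM in cKO. Members without coding bases took 11.3% ± 0.858 of the members' counts in controls and 9.96% ± 0.152 in cKO (SD, n = 4). The groups did not overlap in these 3 measures. The share of all upstream members was 28.4% ± 0.741 against 27.0% ± 0.787 and overlapped between groups. Reads outside every exon ID, which include intronic reads, moved with these measures, from 11.0% ± 0.883 of reads in controls to 5.77% ± 0.531 in cKO, and ambiguous reads from 73.8% to 79.3%. Their part in the lower upstream counts was not tested.

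**Figure D5:**
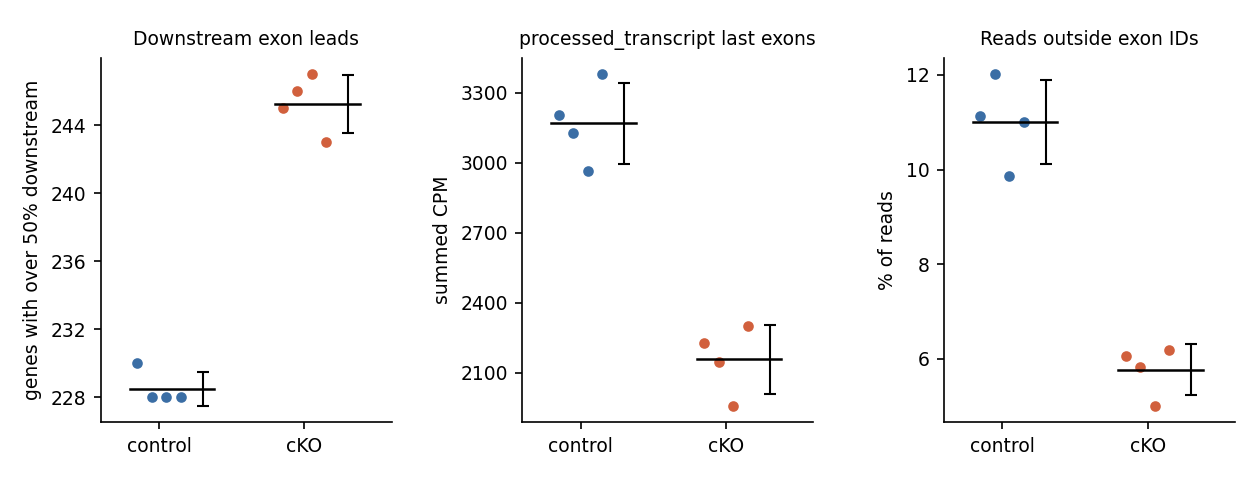
Values per library, with group mean and SD (n = 4), for the number of genes whose downstream last exon holds over 50% of the pair, the summed CPM of processed_transcript last exons, and the percent of reads outside every exon ID. The axes do not start at 0, and control and cKO libraries do not overlap in any of the 3 measures.

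The genes that carry out and restrain 3′ end processing were measured as well. Of 28 listed cleavage, polyadenylation and U1 genes 17 had enough counts, and 9 were higher and 1 lower in cKO, with a median log2 fold change of 0.62. Over all 10631 genes tested 54.8% were called, 26.9% higher and 27.9% lower, with a median of 0.02. Clp1, an RNA kinase of cleavage factor II, rose most, by a log2 fold change of 2.83. Cpsf7 of cleavage factor I followed at 1.41 and Scaf8 at 1.15. Cdk13, the relative of Cdk12, rose by 1.01, the U1 protein Snrpc by 0.84 and the poly(A) polymerase Papola by 0.62. Snrpc held only 93 counts over the 8 libraries and Papola 437. Gene levels are sums over exon IDs and include the last exons described below. Cdk12 fell by 1.14 on the log2 scale. Of 9 listed m6A writer genes 5 were tested. Mettl16, a separate methyltransferase, was higher, and Virma, Rbm15 and Rbm15b, the RNA-binding adaptors of the complex, were lower.

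Of these listed genes 5 have alternative last exons among the members. Cstf3 encodes the CstF-77 subunit of the cleavage stimulation factor and is known for an intronic poly(A) site that yields a short form. Its upstream exon (chromosome 2, 104609091 to 104611406, retained_intron form) had 4, 3, 8 and 20 counts in controls and 49, 55, 35 and 107 in cKO, with every cKO library above every control. The upstream exon thus reached the 80 counts asked for mainly through the cKO libraries. The downstream exon (104664717 to 104665429, coding) had 129, 96, 109 and 82 counts in controls and 182, 168, 152 and 147 in cKO. The downstream share fell from 91.9% to 73.3%, a shift of -2.10 (SE 0.53), given as a description without a p-value for that reason. The lowest control share of 80.4% lay below the highest cKO share of 81.3%.

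Cdk12 moved the other way. Its upstream coding exon (chromosome 11, 98249710 to 98251564) had 185, 167, 99 and 204 counts in controls and 78, 79, 41 and 101 in cKO, with the cKO libraries lower except that the highest reached just above the lowest control. The downstream exon (98277371 to 98278504, no coding bases) held 1 to 12 counts in controls and 7 to 21 in cKO and was not called. This exon lay near the count minimum and drew more of its counts from the cKO libraries, so the shift is given as a description, without a p-value. It was 2.12 (SE 0.38), and 3.54 with a minimum of 20 counts, where other exons form the outermost pair. Cpsf6, Papola and Cstf2 had shifts of -0.53, -0.57 and -0.52 with adjusted p = 0.28, 0.292 and 0.372 (edgeR), and their shares overlapped between the groups. In each of these 3 the upstream exon was called higher, with log2 fold changes of 1.37, 1.02 and 1.03. Both last exons of Cstf2 overlap an exon of another gene.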

How the data were processed

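RNA of 8 libraries, 4 control and 4 cKO, was primed with oligo-dT, extended by template switching, amplified, tagmented and sequenced as 150-base pairs, per the labels' protocols. The authors deposited raw counts, 1 whole number for each exon ID and library. The submitters' processing notes name STAR, HTSeq and the build mm10, and neither their versions and options nor the annotation are given in the sources used here. Reads on more than 1 exon ID (72.9% to 80.4% of reads) or on none (5.01% to 12.0%) are not among these counts. Such libraries favour 3′ ends, and an exon is counted mainly over bases that no other exon ID shares.

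Of the exon IDs, 494230 (99.6%) matched GENCODE M21 with versions ignored, and the other 2058, with 0.252% of counts, were not used. Exon IDs with at least 80 counts over the 8 libraries were tested with edgeR 4.0.16 (R 4.3.3), quasi-likelihood, TMM factors and group as the only term, two-sided. This filter kept all 763 members. For shifts, each pair of such exons of a gene gave 2 counts per library, fitted with a term per library, position, and position by group, and the last was tested. Standard errors were taken as the estimate divided by the square root of F. RLE factors would move the log2 fold changes by a median of 0.00224 and upper-quartile factors by a median of -0.0179. Genes were tested on summed counts. DESeq2 1.42.0 and limma 3.58.1 served as alternatives. At these depths 3 counts are 0.592 to 0.706 CPM.

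The members, gene lists and rules were chosen with earlier results of these data known. Named genes are up to 10 per direction with the largest called shift among pairs with at least 400 counts, 150 unshared bases per exon, no overlap with another gene, non-overlapping shares and a symbol that is not a Gm or Rik name. Added to these are the 5 with most counts, 8 of smallest p with opposite calls, members of the 2 gene lists, and the exons next to the count limit. Sequences come from the GENCODE transcripts.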

Additional observations from a re-analysis of the deposited data

Results flagged for a closer look

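In 4 of 74 sets of 4 libraries, 1 library stood far from the others by Dixon's test at the 95% level, which chance gives in about 1 in 20. The downstream share of Tmem132c was 13.3% in cKO replicate 4 and 25.9% to 26.7% in the other cKO libraries, all above the controls. That of Stxbp4 was 84.4% in cKO replicate 4 against 87.5% to 87.7%. That of Cstf2, whose shift was not called, was 50.0% in cKO replicate 4 against 56.8% to 57.9%. The share of all upstream members was 29.5% in control replicate 4 against 27.9% to 28.2% in the other controls.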

How the results depend on the processing

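With at least 200 counts per exon in place of 80, fewer exons were tested. Then 104 members were higher and 136 lower, 47 and 82 upstream, 57 and 54 downstream, 71 and 88 with coding bases, and 33 and 48 without, 31 genes had opposite calls, and 78 genes moved to downstream and 40 to upstream. Among pairs whose upstream exon is apart from first and internal exons, a choice made after seeing the data that keeps fewer genes, 63 moved to downstream and 33 to upstream. With diffSpliceDGE 50 and 22 did, with a median of 0.030, and 12 of 33 named pairs lost their call. Between the 2 most counted exons the shift of Auh was -1.03, which reverses it, because other exons are compared. With no filter, and without control replicate 3, the cleavage, polyadenylation and U1 genes had 2 lower rather than 1, and the cause was not tested.

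Leaving out 1 library at a time gave 122 to 140 genes moved to downstream and 67 to 77 to upstream, a median shift of 0.39 to 0.48, 174 to 206 members higher and 211 to 232 lower, 37 to 49 genes with opposite calls, and 7 to 10 list genes higher and 1 to 2 lower. All 33 named genes kept their side of the threshold and direction in these 8 fits, with limma on log ratios and with 20 counts. Most were named for called shifts or opposite calls in these same libraries, so this was largely fixed by the choice and is no separate support. The size of the shifts was less stable. With 20 counts the outermost pair of Stxbp4, Ankrd36, Cdk12, Crb1 and Papola holds other exons. The shifts of Stxbp4, Ankrd36 and Cdk12 went from 3.86 to 2.26, from -3.98 to -1.96 and from 2.12 to 3.54. That of Crb1 went from 4.71 to 4.18 and that of Papola from -0.57 to -0.75. With limma and 2 added counts Snx13 went from -2.78 to -1.48 and Cpsf6 from -0.53 to -0.33. Papola was at -0.34 without cKO replicate 1, and Cpsf6 at -0.24 without control replicate 1 and -0.84 without control replicate 3, none of them called. Control and cKO libraries share numbers, but same-numbered libraries deviated together with correlations of -0.0476 to 0.0996, none over 0.1, so the numbers were not taken as pairs. With a replicate block 136 genes moved to downstream and 71 to upstream, 212 members were higher and 224 lower, and Virma had a log2 fold change of -1.80. An exon with under 80 counts, or whose bases other exon IDs share, was not measured well enough to test.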
